A study of Mus musculus with 2 samples.

Results

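The cells described here are the 371 cells of the deposited finer cluster with the highest Calca level that carried no UMI (counted molecule) of the CD3 genes Cd3d, Cd3e and Cd3g or the CD8 genes Cd8a and Cd8b1. They numbered 238 of 7026 deposited cells in the library labelled transgenic (TG) and 133 of 6466 in the library labelled wild type (WT). They were chosen by measured values, namely the Calca level of each cluster over both libraries and the CD3 and CD8 counts of each cell. Calca was at 223 CPM, a gene's UMIs scaled to 1000000 UMIs of the cells summed, in the chosen cluster, numbered 6 of 15, and at 7.44 CPM in the next highest, cluster 8. The cluster held 497 TG-labelled and 257 WT-labelled cells, of which 259 and 124 carried at least 1 CD3 or CD8 UMI. Levels of these cells against other cells are therefore a description and not a test.

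Live CD45+ cells had been sorted from the colon lamina propria and profiled with 10x Genomics 5' chemistry, from C57BL/6 mice aged 8 weeks. The TG mice were labelled as overexpressing E4BP4, a transcription factor encoded by Nfil3, in macrophages, and the others as wild type. Both groups drank dextran sulphate sodium at 2.0% for 7 days, which injures the colon epithelium, and then plain water for 7 days before they were killed on day 14. The transgene was thus labelled for another cell type, the sources used here do not name its promoter or the number of mice, and each genotype had 1 library. In the coarser cluster with the highest macrophage and monocyte marker level, cluster 1, Nfil3 was at 73.8 CPM (65.3 to 83.1) in TG-labelled and 84.4 CPM (72.8 to 97.3) in WT-labelled cells, and in the next, cluster 3, at 235 CPM (215 to 256) and 272 CPM (257 to 288). Of the coarser clusters, cluster 6 alone had a TG over WT ratio of Nfil3 whose interval lay above 1, at 363 CPM (301 to 434) in TG-labelled and 258 CPM (238 to 278) in WT-labelled cells. Nfil3 was thus not higher under TG in the clusters with most macrophage markers, and the libraries are called by their labels throughout. No p-value is given, and the exact 95% intervals in parentheses cover counting error only.

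Group 2 innate lymphoid cells (ILC2) are lymphocytes without a rearranged antigen receptor that live in barrier tissues such as the gut. They depend on the transcription factor GATA3, respond to the epithelial alarmins IL-33 and IL-25 and to the neuropeptide neuromedin U, and release IL-5, IL-13, GM-CSF and amphiregulin. Intestinal ILC2 are also a known source of the calcitonin gene-related peptide encoded by Calca. They lack the CD3 complex, which carries the T cell receptor signal, and the rule on CD3 transcripts used this.

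The promoter sequences of 4 genes that the results turn on are shown because they hold matches to the core of the GATA motif. They are Calca, Csf2 and Il13, whose levels differed between the libraries, and Il1rl1, which encodes the IL-33 receptor. Each is the 250 bases before the RefSeq transcription start (GRCm38.p6), written 5' to 3' on the gene's strand, with capitals marking AGATAA or TGATAA on either strand. For Csf2 the GENCODE start lies downstream of the RefSeq one, and for Il1rl1 the first of 2 listed starts is shown.
Calca (chr7:114636358-114636607, minus strand): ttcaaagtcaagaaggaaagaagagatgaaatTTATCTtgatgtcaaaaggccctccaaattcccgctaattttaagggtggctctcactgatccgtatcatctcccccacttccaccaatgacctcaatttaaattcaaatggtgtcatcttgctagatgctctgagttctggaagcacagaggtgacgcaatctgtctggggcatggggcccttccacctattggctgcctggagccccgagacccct
Csf2 (chr11:54249900-54250149, minus strand): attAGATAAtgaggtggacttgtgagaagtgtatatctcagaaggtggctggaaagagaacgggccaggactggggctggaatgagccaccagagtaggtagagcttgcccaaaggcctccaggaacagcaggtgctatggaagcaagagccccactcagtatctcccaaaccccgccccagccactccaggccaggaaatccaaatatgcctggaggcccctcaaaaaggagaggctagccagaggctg
Il13 (chr11:53634703-53634952, minus strand): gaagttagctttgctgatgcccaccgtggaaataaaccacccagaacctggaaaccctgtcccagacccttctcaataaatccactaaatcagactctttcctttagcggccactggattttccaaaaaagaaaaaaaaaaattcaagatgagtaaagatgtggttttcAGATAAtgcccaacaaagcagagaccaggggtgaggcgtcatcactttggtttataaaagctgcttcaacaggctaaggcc
Il1rl1 (chr1:40429320-40429569, plus strand): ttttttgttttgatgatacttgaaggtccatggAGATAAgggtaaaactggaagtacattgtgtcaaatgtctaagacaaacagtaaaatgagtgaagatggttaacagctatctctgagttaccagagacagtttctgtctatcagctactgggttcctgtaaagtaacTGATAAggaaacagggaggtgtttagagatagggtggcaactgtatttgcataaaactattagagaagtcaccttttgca
Calca, Csf2 and Il13 held 1 match each and Il1rl1 held 2. Such a match was present in 5452 of 32851 promoters of this length in the table (16.6%), and in 2 of the 12 genes with an entry among the 15 that led these cells over their neighbours. Gata3, Il4, Il5, Areg, Il17rb, Nmur1 and Hs3st1 held no AGATAA or TGATAA on either strand in this window. For Il4 and Nmur1 this was the first of 2 listed starts, and other forms of the motif were not searched.

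The label of ILC2-like cells was checked against marker genes. The cells were set beside the other cells of the coarser clusters 2 and 4, which hold T cells and other lymphocytes (1573 TG-labelled and 814 WT-labelled cells). The leading genes were Il17rb, Bmp2, Apbb2, Slc7a8, Pde7b, Calca, Stab2, Ccdc184, Il1rl1, Hs3st1, Deptor, Nmur1, Arg1, Lif and Stxbp6. Il17rb, the IL-25 receptor subunit, was at 134 CPM in these cells and 2.09 CPM in the other cells of the TG-labelled library, and at 194 and 5.47 CPM in those of the WT-labelled library. Il1rl1 was at 270 CPM in these cells and 11.9 CPM in the others under TG, and at 271 and 10.6 CPM under WT. Nmur1, the neuromedin U receptor, had 70.0 CPM in these cells and 3.56 CPM in the others under TG, and 77.5 and 3.64 CPM under WT. Arg1, the arginase that ILC2 are known to express, had 288 CPM in these cells and 8.79 CPM in the others under TG, and 278 and 14.2 CPM under WT. Of 14 ILC2 markers 13 were detected, with Ptgdr2 at 0 UMIs. Detection alone does not set these cells apart, because the other cells of clusters 2 and 4 held all 14, and B cells all but Il5 and Ptgdr2. The sum of the 14, with Calca among them, was at 3117 (TG) and 5185 CPM (WT) in these cells. It was at 466 (TG) and 719 CPM (WT) in the other cells of clusters 2 and 4.

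Single cells bore the label unevenly. Of 6 ILC2 genes (Gata3, Il1rl1, Il17rb, Klrg1, Nmur1 and Hs3st1), at least 2 were found in 107 of 238 TG-labelled cells (45%, 38.5 to 51.5) and in 51 of 133 WT-labelled cells (38.3%, 30.1 to 47.2). None was found in 104 TG-labelled (43.7%) and 64 WT-labelled (48.1%) cells, and all 6 in 2 and 6 cells. In the deposited B cell cluster, 9 of 2236 TG-labelled and 2 of 2410 WT-labelled cells carried at least 2, which gives the background. A single gene was not read as a sign of ILC2, because Hs3st1 alone was at 148 CPM in TG-labelled and 170 CPM in WT-labelled B cells. Of the genes given with the label (Gata3, Il1rl1, Csf2, Calca and Areg), 99 TG-labelled (41.6%) and 63 WT-labelled (47.4%) cells held none, and 5 and 7 cells held all 5.

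**Figure D1:**
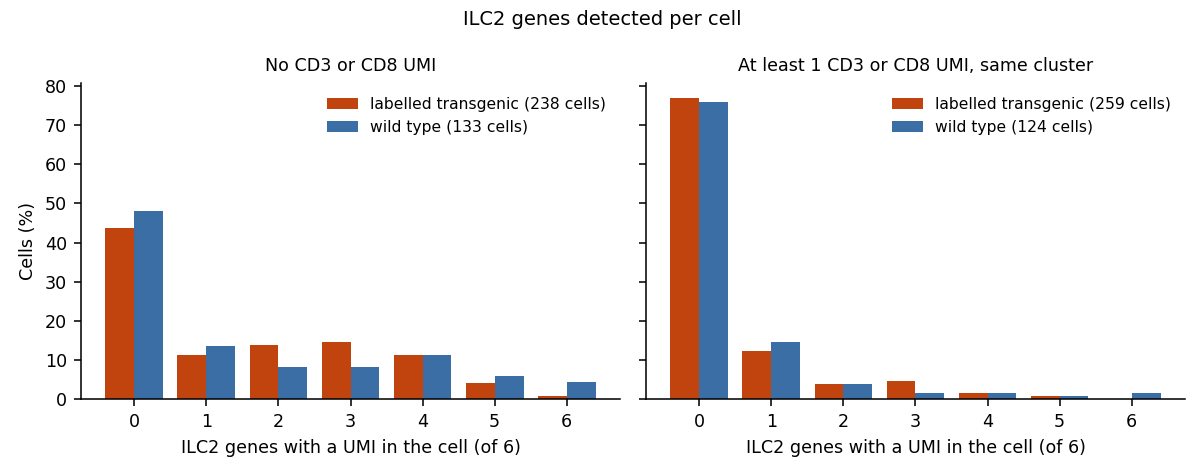
Share of cells (%) by the number of 6 ILC2 genes with at least 1 UMI, for cells without CD3 or CD8 UMIs (left) and cells of the same cluster with at least 1 (right), library labelled transgenic in red and wild type in blue. The bars at 0 hold 43.7% (transgenic) and 48.1% (wild type) of the cells on the left, against 76.8% and 75.8% on the right.

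Depth moved with this split. Cells with at least 2 ILC2 genes had a median of 3265 UMIs under TG and 3511 UMIs under WT, and cells with 0 or 1 had 917 UMIs under TG and 906 under WT. The CD3-negative cells as a whole had medians of 1469 UMIs (TG) and 1128 UMIs (WT) and summed to 499915 and 283885 UMIs, while the other cells of clusters 2 and 4 had medians of 2982 (TG) and 3365.5 (WT). With each cell thinned to 1000 UMIs, which left out 80 TG-labelled and 54 WT-labelled shallower cells, 36.1% (TG) and 35.4% (WT) still carried at least 2 ILC2 genes. Of the cells with 0 or 1 ILC2 gene, 58 TG-labelled and 33 WT-labelled cells had at least 1000 UMIs. Just outside the rule, cells of the cluster with exactly 1 CD3 or CD8 UMI carried at least 2 ILC2 genes in 10 of 89 TG-labelled (11.2%) and 8 of 50 WT-labelled (16%) cells. The whole set is called CD3-negative cells of the Calca cluster, and the 107 TG-labelled and 51 WT-labelled cells with at least 2 of the 6 genes, here the ILC2 gene-bearing cells, are described on their own where they differ.

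Several genes that the split did not use were also higher in the ILC2 gene-bearing cells. Rora, another ILC2 marker, was instead lower in them than in the rest under WT. Il4, a type 2 cytokine, was at 211 CPM in ILC2 gene-bearing cells and 31.4 CPM in the rest under TG, and at 242 and 37.6 CPM under WT. Arg1 was at 358 CPM in ILC2 gene-bearing cells and 138 CPM in the rest under TG, and at 411 and 56.4 CPM under WT. Cysltr1, a receptor for cysteinyl leukotrienes that are known to activate ILC2, was at 173 CPM in ILC2 gene-bearing cells and 75.3 CPM in the rest under TG, and at 248 and 37.6 CPM under WT. Il9r, the IL-9 receptor, was at 82.2 CPM (TG) and 56.3 CPM (WT) in ILC2 gene-bearing cells, with 0 UMIs in the rest of both libraries. Type 2 cytokine, leukotriene receptor and arginase transcripts were thus concentrated in the deeper cells, and the part of depth in that was not tested beyond the thinned shares above.

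Several T cell genes ran the other way. Ctla4, an inhibitory receptor of regulatory and activated T cells, was found in 3 of 107 ILC2 gene-bearing cells and 24 of 131 of the rest under TG, and in 0 of 51 and 29 of 82 under WT, although the rest were shallower. Ikzf2, which encodes Helios, was at 79.3 CPM in ILC2 gene-bearing cells and 539 CPM in the rest under TG, and at 50.7 and 715 CPM under WT. Cd28, the T cell costimulatory receptor, had 29.4 CPM in ILC2 gene-bearing cells and 320 CPM in the rest under TG, and 33.8 and 273 CPM under WT. Cd5, another T cell surface protein, had 8.81 CPM in ILC2 gene-bearing cells and 238 CPM in the rest under TG, and 0 and 301 CPM under WT. Cd4 was found in 2 ILC2 gene-bearing cells and 15 of the rest under TG, and in 1 and 11 under WT. Foxp3, the transcription factor of regulatory T cells, was found in 1 and 5 cells under TG and in 0 and 10 under WT. At least 1 of Il22, Il23r and Il17a, which ILC3 and type 17 T cells are known to express, was found in 2 ILC2 gene-bearing cells (1.87%) and 11 of the rest (8.40%) under TG, and in 0 and 14 (17.1%) under WT. The sum of 10 ILC3 markers was at 2179 CPM in ILC2 gene-bearing cells and 4497 CPM in the rest under TG, and at 2338 and 3940 CPM under WT. In the other cells of clusters 2 and 4 this sum was lower, at 1155 (TG) and 1735 CPM (WT). Cells with T cell or type 17 transcripts were thus part of the CD3-negative set, alongside the ILC2-like ones.

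**Figure D2:**
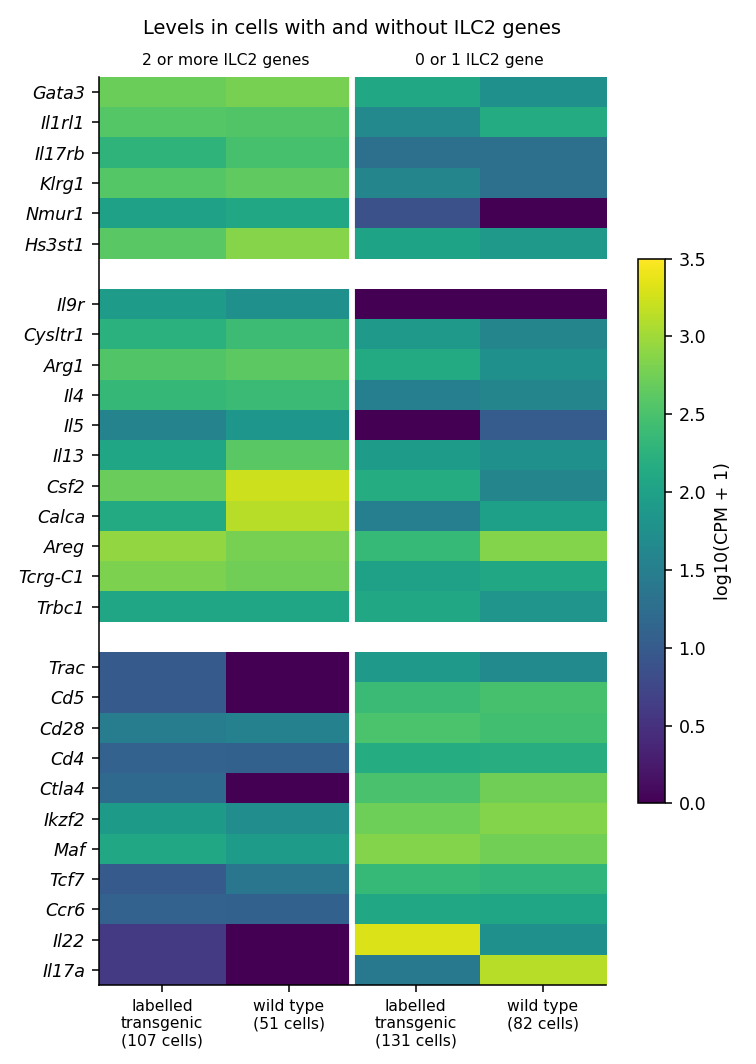
Level of 28 genes as log10(CPM + 1), in CD3-negative cells with at least 2 ILC2 genes (left pair) and with 0 or 1 (right pair), library labelled transgenic before wild type in each pair. The top block holds the 6 genes that define the split, the middle block genes higher in the left pair in most columns, and the bottom block T cell and type 17 genes, such as Ctla4 at 14.7 CPM (transgenic) and 0 CPM (wild type) on the left and 307 and 545 CPM on the right.

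T cell receptor constant genes were not part of the rule and behaved unequally. A UMI of Trac, Trbc1 or Trbc2 was found in 84 TG-labelled cells (35.3%, 29.2 to 41.7) and in 36 WT-labelled cells (27.1%, 19.7 to 35.5), against 2.33% (TG) and 1.00% (WT) of B cells, and after thinning in 22.2% (TG) and 13.9% (WT), against 1.44% (TG) and 0.564% (WT) of B cells. In ILC2 gene-bearing cells the unthinned shares were 43.9% (TG) and 41.2% (WT), above 28.2% (TG) and 18.3% (WT) in the shallower rest. The part of depth in this contrast was not tested. The shares of the ILC2 gene-bearing cells came mostly from the beta chain. Trbc1 was found in 32 (TG) and 15 (WT) of those cells and Trbc2 in 24 (TG) and 12 (WT), while the alpha chain gene Trac was found in 3 (TG) and 0 (WT). Trac was there at 8.81 CPM under TG and 0 CPM under WT, against 239 (TG) and 223 CPM (WT) in the other cells of clusters 2 and 4. Trbc1 was at 117 CPM under TG and 113 CPM under WT, against 196 (TG) and 131 CPM (WT) in those other cells. The gamma chain constant gene Tcrg-C1 was at 643 CPM (TG) and 552 CPM (WT) in ILC2 gene-bearing cells and at 127 (TG) and 110 CPM (WT) in the other cells of clusters 2 and 4, with 0 (TG) and 5.63 CPM (WT) of the delta chain gene Trdc in the ILC2 gene-bearing cells. By level, the sum of 10 alpha-beta T cell markers, with Trac, Trbc1 and Trbc2 among them, was lower in ILC2 gene-bearing cells than in the rest. It was at 467 and 1649 CPM under TG, and at 372 and 1392 CPM under WT. The sum of 9 gamma-delta T cell markers was at 919 CPM in ILC2 gene-bearing cells and 621 CPM in the rest under TG, and at 834 and 743 CPM under WT. Near-identical Tcrg-C and Trbc genes can share reads, so the split between Trbc1 and Trbc2, or between Tcrg-C1 and Tcrg-C2, is uncertain. Requiring 0 UMIs of Trac, Trbc1, Trbc2 and Cd4 as well would keep 141 TG-labelled and 87 WT-labelled cells.

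The next comparison asks how frequent these cells were under each label. They made up 3.39% (2.98 to 3.84) of deposited TG-labelled cells and 2.06% (1.72 to 2.43) of WT-labelled cells, so the TG over WT ratio was 1.65 (1.33 to 2.05). ILC2 gene-bearing cells made up 1.52% (TG) and 0.789% (WT), with a ratio of 1.93 (1.37 to 2.75), and those with 0 or 1 of the genes made up 1.86% (TG) and 1.27% (WT), with a ratio of 1.47 (1.11 to 1.96). The CD3 or CD8 positive cells of the same cluster had a ratio of 1.92 (1.55 to 2.40). Over the cells of clusters 2 and 4 alone the shares were close, at 12.9% (TG) and 13.8% (WT). The ratio there was 0.937 (0.753 to 1.17), whose interval reaches past 1. The higher share of CD3-negative cells under TG was thus a share of all deposited cells and was not seen within these clusters. The share of ILC2 gene-bearing cells within these clusters was not computed.

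The libraries were then compared gene by gene within the CD3-negative cells, each ratio being TG over WT. Of 4117 genes with at least 30 UMIs over both libraries, 363 (8.82%) were at least 1.5-fold higher under TG and 499 (12.1%) at least 1.5-fold lower, so 42.1% of the genes past 1.5-fold were higher. The median log2 ratio was -0.06. Scaling by the median ratio (0.912, a shift of -0.13 on the log2 scale) gave 525 higher and 317 lower, so that 62.4% were then higher. Genes near 1.5-fold therefore enter or leave these counts with the scaling.

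Several genes that define ILC2 identity had close levels in both libraries. Gata3 (mm10 chromosome 2, 9857078 to 9890034, minus strand) was at 394 CPM in TG-labelled cells (341 to 453) and 398 CPM in WT-labelled cells (328 to 479), with a ratio of 0.990 (0.782 to 1.26). Il1rl1 (chromosome 1, 40429570 to 40465415, plus strand) had a ratio of 0.996 (0.747 to 1.33), and Klrg1, an inhibitory receptor of mature ILC2, was at 270 (TG) and 285 CPM (WT), with a ratio of 0.946 (0.713 to 1.26). Counting error alone leaves none of the 3 as far as 1.5-fold apart in either direction. Il7r, the IL-7 receptor on which innate lymphoid cells depend, was at 612 (TG) and 708 CPM (WT) (ratio 0.865, 0.721 to 1.04), and Id2, a transcription factor of all innate lymphoid cells, at 804 (TG) and 800 CPM (WT) (ratio 1.01, 0.853 to 1.19). Nmur1 had 35 (TG) and 22 UMIs (WT) and a ratio of 0.903 (0.515 to 1.62).

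Other identity genes had lower levels under TG. Rora, a nuclear receptor needed for ILC2 development, was at 342 CPM (293 to 397) under TG and 518 CPM (437 to 609) under WT, with a ratio of 0.661 (0.527 to 0.829). In ILC2 gene-bearing cells Rora was at 347 (TG) and 406 CPM (WT), with a ratio of 0.855 (0.632 to 1.16), whose interval reaches 1. Under WT it was thus lower in ILC2 gene-bearing cells than over all CD3-negative cells. Hs3st1, a heparan sulphate sulphotransferase, was at 310 (TG) and 479 CPM (WT), with a ratio of 0.647 (0.511 to 0.821). Il17rb had a ratio of 0.692 (0.477 to 1.01), whose interval reaches 1. Nfil3, the gene of E4BP4 and itself needed for innate lymphoid development, was at 60.0 CPM (40.5 to 85.7) under TG and 81.0 CPM (51.4 to 122) under WT, with a ratio of 0.741 (0.416 to 1.33), and was found in 21 cells of each library.

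**Figure D3:**
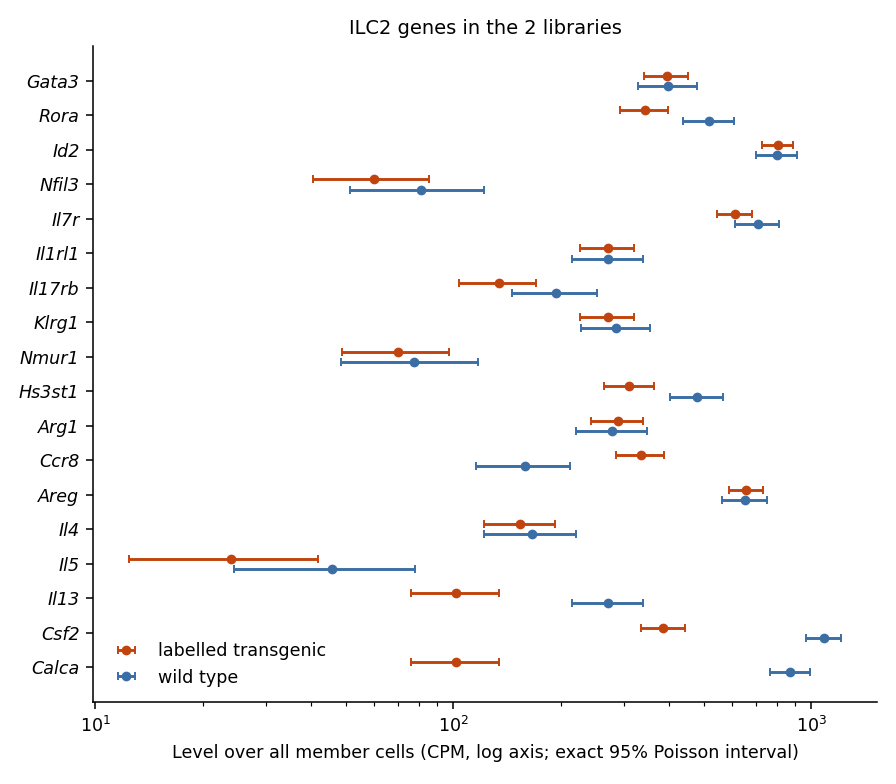
Levels (CPM, log axis) of 18 genes over all CD3-negative cells of the Calca cluster, as points with exact 95% Poisson intervals, library labelled transgenic (red) above wild type (blue) in each row. The intervals of Gata3, Il1rl1, Klrg1 and Areg overlap, and those of Calca, Csf2, Il13 and Ccr8 do not.

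Among the type 2 products Calca, Csf2 and Il13 had lower levels under TG. Calca (chromosome 7, 114631478 to 114636357, minus strand) was at 102 CPM in TG-labelled cells (76.0 to 134) and 874 CPM in WT-labelled cells (768 to 989), with a ratio of 0.117 (0.0846 to 0.158). Its UMIs were in 19 of 238 TG-labelled cells (7.98%, 4.87 to 12.2) and 26 of 133 WT-labelled cells (19.5%, 13.2 to 27.3), and after thinning in 6.33% (3.08 to 11.3) under TG and 21.5% (13.1 to 32.2) under WT, while 2 of 2236 TG-labelled and 0 of 2410 WT-labelled B cells held it (median depths 2235 and 2445 UMIs). The cell with most UMIs held 8 under TG and 92 under WT. Without the 5 highest cells of each library the ratio was 0.151 (0.0895 to 0.243). The median UMIs per Calca-positive cell were 2 under TG and 4.5 under WT, so both the share of cells and the count per positive cell were lower under TG. Calca chose the cluster over both libraries together, so its level is a description, though the rule did not fix which library was higher. CD3 or CD8 positive cells of the cluster had 9.33 (TG) and 60.8 CPM (WT).

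Cells with Calca were among the fullest ILC2-like cells in both libraries. Gata3 was found in 16 of 19 Calca-positive cells (84.2%) and 36.1% of the cells without Calca under TG, and in 22 of 26 (84.6%) and 27.1% under WT. Il1rl1 was found in 63.2% of Calca-positive cells and 26.5% of the others under TG, and in 69.2% and 15.9% under WT. Il17rb was found in 31.6% of Calca-positive cells under TG and 65.4% under WT. Calca-positive cells were deeper, with a median of 3390 UMIs against 1317 in the others under TG and 3698 against 1004 under WT, and the part of depth in the shares was not tested.

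Csf2, which encodes GM-CSF, was at 386 CPM (333 to 445) under TG and 1085 CPM (967 to 1213) under WT, with a ratio of 0.356 (0.296 to 0.427). Unlike Calca, it was found in like shares of cells, 47 TG-labelled (19.7%) and 26 WT-labelled (19.5%), and after thinning in 17.7% (TG) and 19.0% (WT). The 5 highest TG-labelled cells held 20, 13, 13, 12 and 12 UMIs, against 61, 58, 47, 35 and 34 in the 5 highest WT-labelled cells, which were 76.3% of the WT total. Without the 5 highest cells of each library the ratio was 0.957 (0.711 to 1.30). Those 5 cells were a larger part of the 26 WT-labelled than of the 47 TG-labelled cells with Csf2, so the trim was unequal. Most WT-labelled Csf2 UMIs thus lay in 5 cells, but how far the difference rests on them was not tested.

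Il13, the cytokine that drives goblet cell mucus, was at 102 CPM (76.0 to 134) under TG and 271 CPM (214 to 339) under WT, with a ratio of 0.376 (0.259 to 0.543). Cells with Il13 numbered 14 TG-labelled (5.88%, 3.25 to 9.67) and 23 WT-labelled (17.3%, 11.3 to 24.8), after thinning 3.8% under TG and 19% under WT, and the ratio was 0.266 (0.134 to 0.506) without the 5 highest cells of each library. Il5, which supports eosinophils, had 12 (TG) and 13 UMIs (WT), with a ratio of 0.524 (0.219 to 1.25) that counting error does not separate from 1. Il4 was at 154 (TG) and 166 CPM (WT), with a ratio of 0.930 (0.639 to 1.37). Il5, Il13, Il4 and Csf2 lie in one cluster of cytokine genes on chromosome 11, where Il13 (53631324 to 53634702) and Il4 (53602982 to 53618669) are close neighbours. These neighbours had unlike ratios, but the difference between the ratios was not tested.

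Areg, which encodes the epithelial growth factor amphiregulin, was at 656 CPM (587 to 731) under TG and 652 CPM (561 to 753) under WT, with a ratio of 1.01 (0.838 to 1.21). Areg UMIs were in 64 TG-labelled (26.9%) and 37 WT-labelled (27.8%) cells. Its ratio moved with the choice of cells, being 1.40 (1.12 to 1.76) in ILC2 gene-bearing cells, 0.511 over all cells of the cluster and 0.396 with 0 UMIs of Trac, Trbc1, Trbc2 and Cd4 required. No direction is therefore given for Areg. Tnfsf11, which encodes RANKL, was at 188 (TG) and 169 CPM (WT). Lif, a cytokine of the IL-6 family, was at 138 (TG) and 162 CPM (WT), with a ratio of 0.852 (0.578 to 1.27).

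**Figure D4:**
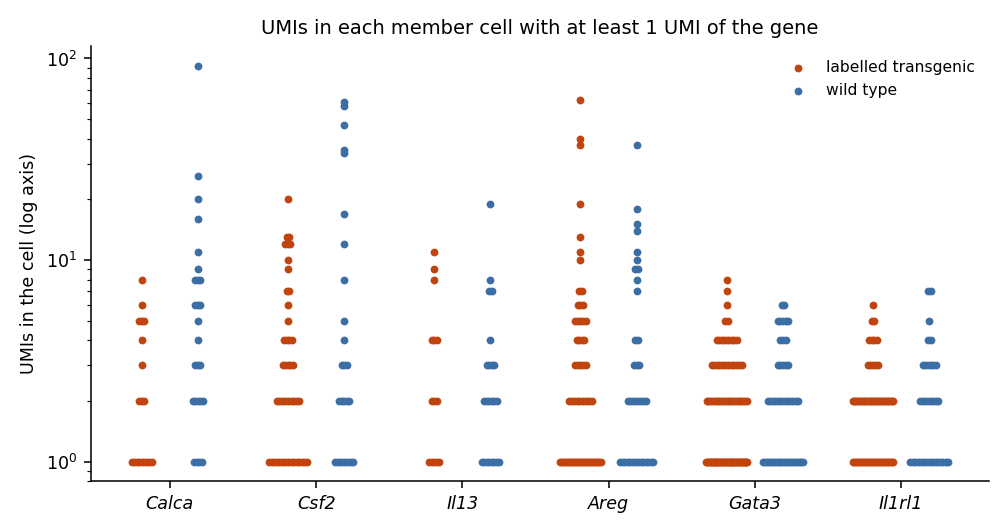
UMIs per cell (log axis) in each CD3-negative cell with at least 1 UMI of the gene, 1 point per cell, library labelled transgenic (red) left of wild type (blue) for each gene. Calca reaches 8 UMIs in red and 92 in blue, Csf2 20 and 61, while Gata3 reaches 8 and 6.

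Several of the other large ratios came from 1 or a few cells with another profile. Il22 had 327 UMIs in 6 TG-labelled cells and 6 UMIs in 2 WT-labelled cells, but 294 of the 327 lay in 1 cell, which also held 45 of the 46 Ccl17 UMIs. That cell carried 1 of the 6 ILC2 genes among its 5503 UMIs. Cma1 and Mcpt4, proteases of mast cells, had 1 UMI each under TG and 131 and 100 under WT, where 1 cell held 130 and 100 of them together with 39 Tpsb2 and 16 Cpa3 UMIs. Mcpt1 and Mcpt2 of the same marker list had more UMIs under TG, with 55 Mcpt1 UMIs in 41 TG-labelled and 3 in 3 WT-labelled cells, and 28 Mcpt2 UMIs in 21 TG-labelled and 0 in WT-labelled cells. In ILC2 gene-bearing cells the list's sum was at 115 CPM (TG, 39 UMIs) and 5.63 CPM (WT, 1 UMI). In B cells the sum was at 104 CPM (TG) and 31.8 CPM (WT), and the part of mast cell RNA was not tested. The WT-labelled cell with most Cma1 carried none of the 6 ILC2 genes. Il17a had 5 UMIs in 5 TG-labelled cells and 143 UMIs in 9 WT-labelled cells, 67 of them in 1 cell that carried none of the 6 genes. Among ILC2 gene-bearing cells, Il22 was found in 1 (TG) and 0 (WT) and Il17a in 1 (TG) and 0 (WT), and Cma1, Mcpt4 and Tpsb2 had 0 UMIs. Cd163l1, a receptor of gamma-delta T cells, had 7 UMIs in 4 TG-labelled and 24 UMIs in 6 WT-labelled cells and was likewise at 0 in the ILC2 gene-bearing cells.

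Other genes with higher levels under TG were spread over more cells. Ccr8 (chromosome 9, 120092114 to 120094906, plus strand), a chemokine receptor of type 2 lymphocytes, was at 334 CPM (285 to 389) under TG and 159 CPM (116 to 212) under WT, with a ratio of 2.11 (1.51 to 3.0). Its UMIs were in 58 TG-labelled and 26 WT-labelled cells, and the ratio was 2.03 (1.40 to 3.01) in ILC2 gene-bearing cells and 2.73 (1.78 to 4.34) without the 5 highest cells of each library. Over all cells of the cluster it was 1.23, where the CD3 or CD8 positive cells had 77.0 (TG) and 197 CPM (WT). Anxa1, which encodes annexin A1, an inhibitor of inflammation, had 60 UMIs in 41 TG-labelled cells and 11 UMIs in 9 WT-labelled cells, with a ratio of 3.10 (1.61 to 6.53). Lgals1, which encodes galectin 1, was at 392 (TG) and 183 CPM (WT), with a ratio of 2.14 (1.57 to 2.96), and 1.29 over all cells of the cluster. S100a10, the partner of annexin A2, was at 1136 (TG) and 645 CPM (WT), with a ratio of 1.76 (1.49 to 2.09), 2.19 (1.78 to 2.72) in ILC2 gene-bearing cells and 1.46 over all cells of the cluster. Zfp36l2, an RNA-binding protein that destabilises messages, was at 780 (TG) and 454 CPM (WT), with a ratio of 1.72 (1.40 to 2.11). In the other cells of clusters 2 and 4 the ratios were 1.11 for Ccr8, 0.654 for Anxa1, 0.803 for Lgals1, 0.884 for S100a10 and 1.5 for Zfp36l2.

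The remaining genes named by rank were Bcl7c, AY036118, Sart1, Lars2 and Safb2 on the higher side, with ratios of 1.59 (Lars2) to 9.09 (Bcl7c, from 32 TG and 2 WT UMIs). On the lower side were Tnfrsf9, Got1, Neb and Cxcl10. Tnfrsf9, the costimulatory receptor 4-1BB, was at 44.0 (TG) and 137 CPM (WT), with a ratio of 0.320 (0.181 to 0.554). In ILC2 gene-bearing cells it was at 17.6 (TG) and 22.5 CPM (WT), and in the rest at 100 (TG) and 329 CPM (WT). Got1, an aspartate aminotransferase, had 14 UMIs in 14 TG-labelled and 28 UMIs in 23 WT-labelled cells, with a ratio of 0.284 (0.138 to 0.558), but 4 (TG) and 3 UMIs (WT) and a ratio of 0.695 in ILC2 gene-bearing cells. Neb, the gene of the muscle protein nebulin, had 38 UMIs in 25 TG-labelled and 59 UMIs in 35 WT-labelled cells, with a ratio of 0.366 (0.237 to 0.559), against 0.460 in the other cells of clusters 2 and 4. Cxcl10 had 34 UMIs in 11 TG-labelled and 54 UMIs in 8 WT-labelled cells, and its ratio of 0.358 turned to 1.51 (0.363 to 8.86) without the 5 highest cells of each library.

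Gene lists were read by counts among members with at least 20 UMIs, beside 637 higher (11.6%) and 806 lower (14.6%) of all 5507 such genes and their median log2 ratio of -0.06. Of 18 cytokine and growth factor genes, 4 were higher under TG (Il22, Hbegf, Lta and Tnfsf8) and 5 lower (Il5, Il13, Il17a, Csf2 and Calca). Of 13 ILC2 markers, 1 was higher (Il9r) and 6 were lower (Csf2, Calca, Il5, Il13, Hs3st1 and Rora), with a median of -0.53. The 14 listed markers, with Calca among them, summed to 3117 (TG) and 5185 CPM (WT), with a ratio of 0.601 (0.559 to 0.646). Calca and Csf2 held 51 and 193 of the 1558 TG UMIs in this sum, and 248 and 308 of the 1472 WT UMIs. Gata3, Il1rl1 and Klrg1 of the same list had ratios of 0.990, 0.996 and 0.946. The sum was thus not a like drop in all markers, and its value without Calca and Csf2 was not computed. In ILC2 gene-bearing cells the ratio of this sum was 0.566 (0.524 to 0.612). Of 20 cytokine receptors, 2 were higher (Il18rap and Il9r) and 1 lower (Il4ra), with a median of -0.21. Of 12 neuropeptide, lipid and nutrient receptors, 2 were higher (Ptgir and Rarg) and 1 lower (Ramp3). Among receptors within 1.5-fold were Ltb4r1, a leukotriene B4 receptor, at 238 (TG) and 232 CPM (WT), and Ramp1, a subunit of the receptor for the Calca peptide, at 296 (TG) and 299 CPM (WT). Of 22 transcription factors none was higher and 4 were lower (Rora, Lef1, Batf and Foxp3), or 2 under median of ratios scaling. Among 15 cytokine receptors measured in ILC2 gene-bearing cells 5 were lower (Il17rb, Il12rb1, Il2rb, Il27ra and Tgfbr2) and 0 higher, beside 16.5% lower of all 3498 genes measured there, and over all cells of the cluster 7 of 25 were lower and 1 higher.

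Activation and checkpoint receptors had 0 higher and 8 lower of 16 (Icos, Pdcd1, Ctla4, Havcr2, Cd96, Tnfrsf4, Tnfrsf9 and Cd7), with a median of -0.35, and 1 higher and 6 lower with a median of -0.21 under median of ratios scaling. Icos, a costimulatory receptor of T cells and ILC2, was at 264 (TG) and 419 CPM (WT), with a ratio of 0.630 (0.488 to 0.814), and Pdcd1, which encodes PD-1, at 74.0 (TG) and 127 CPM (WT), with a ratio of 0.584 (0.359 to 0.950). Markers of regulatory T cells, which share Ctla4 with this list, moved with it in their sum. All 4 were detected and summed to 628 (TG) and 944 CPM (WT), with a ratio of 0.665 (0.563 to 0.786). Their part in the result was not tested. In ILC2 gene-bearing cells 1 of 9 measured receptors, Pdcd1, was past 1.5-fold, at 88.1 (TG) and 152 CPM (WT) (ratio 0.579, 0.333 to 1.01). NF-kappaB genes had 1 higher (Cflar) and 4 lower (Rel, Relb, Nfkbia and Nfkbie) of 14. Nfkbia, the inhibitor that NF-kappaB itself induces, was at 1892 (TG) and 2952 CPM (WT), with a ratio of 0.641 (0.584 to 0.704), and at 2182 (TG) and 4005 CPM (WT) in ILC2 gene-bearing cells.

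Immediate early genes had 2 higher (Egr1 and Atf3) and 2 lower (Jun and Ier3) of 25. Fos was at 3399 (TG) and 3195 CPM (WT), with a ratio of 1.06 (0.981 to 1.15), and Jun at 700 (TG) and 1074 CPM (WT), with a ratio of 0.652 (0.557 to 0.762). Metabolic genes had 1 higher (Slc7a8, an amino acid transporter) and 2 lower of 15, namely Hif1a, the hypoxia factor, and Pkm, the glycolytic pyruvate kinase. Pkm was at 290 (TG) and 472 CPM (WT), with a ratio of 0.614 (0.482 to 0.783). Homing and adhesion receptors had 2 higher (Ccr8 and Cxcr4) and 3 lower (Ccr4, Ccr9 and S1pr1) of 18. Chemokines had 3 higher (Ccl4, Ccl5 and Xcl1) and 3 lower (Cxcl2, Cxcl3 and Cxcl10) of 7, but in ILC2 gene-bearing cells 0 higher and 2 lower (Ccl5 and Cxcl10) of 4. The 12 NK and ILC1 markers, which include Ccl5 and Xcl1, summed to 738 (TG) and 560 CPM (WT) (ratio 1.32, 1.09 to 1.60), with a ratio of 0.569 (0.421 to 0.771) in ILC2 gene-bearing cells and 2.54 (1.95 to 3.34) in the rest, and their part in the chemokine counts was not tested. Interferon response genes had 2 higher (Irf7 and Zbp1) and 1 lower (Isg15) of 11. Neutrophil transcripts, summed over S100a8, S100a9, Csf3r and Cxcr2, were at 40.0 (TG) and 497 CPM (WT) in these cells and at 17.5 (TG) and 448 CPM (WT) in B cells. The part of neutrophil RNA in the lower Cxcl2 and Cxcl3 counts was not tested.

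**Figure D5:**
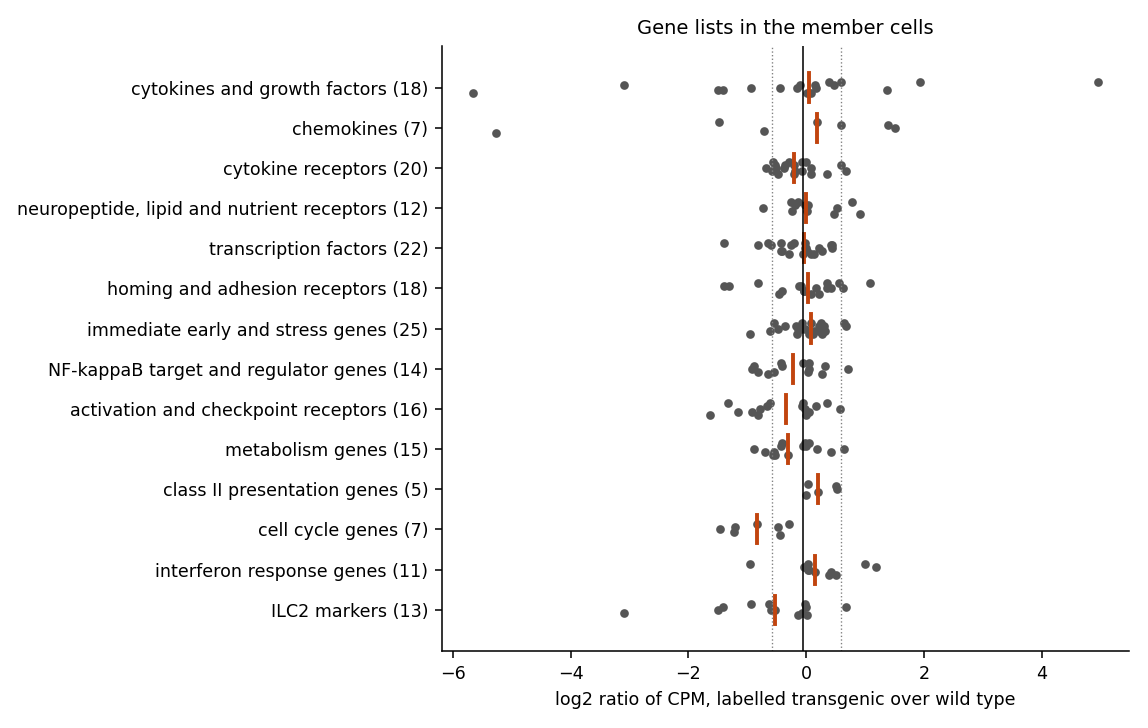
log2 ratio of CPM, library labelled transgenic over wild type, for each listed gene with at least 20 UMIs (points), with the list's median (red bar), the median of all genes (black line, -0.06) and 1.5-fold either way (dotted). The medians lie between -0.84 for 7 cell cycle genes and 0.19 for 5 class II genes.

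Cell cycle genes were 0 higher and 4 lower of 7 (Stmn1, Tyms, Tubb5 and Pcna), with a median of -0.84. Mki67, a proliferation marker, was found in 13 TG-labelled cells with 36 UMIs and 9 WT-labelled cells with 25 UMIs, with a ratio of 0.818 (0.477 to 1.42). In ILC2 gene-bearing cells all 5 measured genes were lower, against 16.5% of 3498 genes there, but Top2a came from 5 (TG) and 4 (WT) cells and Mki67 from 6 (TG) and 4 (WT). Tubb5, a tubulin, was found in 53 (TG) and 25 (WT) of those cells, at 241 (TG) and 563 CPM (WT), with a ratio of 0.428 (0.315 to 0.578). Over all CD3-negative cells its ratio was 0.558 and, without the 5 highest cells of each library, 0.986 (0.696 to 1.41). The sum of all 13 listed cell cycle genes had a ratio of 0.423 (0.355 to 0.504) in ILC2 gene-bearing cells and 1.36 (1.02 to 1.82) in the rest. Leaving out 5 cells took a larger share of the smaller WT-labelled set. How far the Tubb5 difference over the CD3-negative cells rests on a few cells was therefore not tested.

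Class II presentation genes, through which ILC2 can present antigen, had 0 of 5 past 1.5-fold over all CD3-negative cells, 2 of 5 higher under median of ratios scaling, and 2 of 5 lower with 0 UMIs of Trac, Trbc1, Trbc2 and Cd4 required. Among ILC2 gene-bearing cells 4 of 5 were higher (Cd74, H2-Aa, H2-Ab1 and H2-Eb1), beside 12.7% of all genes there, while the sum of the 6 listed class II genes had a ratio of 0.723 (0.640 to 0.817) in the rest. H2-Aa was at 520 CPM in 42 TG-labelled cells and 169 CPM in 12 WT-labelled cells, with a ratio of 3.08 (2.08 to 4.69). B cell markers moved the same way in these cells, with all 5 detected and a sum of 402 (TG) and 203 CPM (WT) (ratio 1.98, 1.37 to 2.95), against 7397 (TG) and 7579 CPM (WT) in B cells, where H2-Aa was at 6421 (TG) and 6819 CPM (WT). The part of B cell RNA in the class II values was not tested. Ccr2, a receptor of the chemokine CCL2, was at 270 CPM in 41 TG-labelled and 90.1 CPM in 9 WT-labelled ILC2 gene-bearing cells, with a ratio of 3.0 (1.75 to 5.46), against 1.48 (1.07 to 2.05) over all CD3-negative cells.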

How the data were processed

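The deposited UMI counts per gene and barcode were used with the deposited metadata, which give per cell its library, UMIs, genes and cluster numbers, per the file headers. The metadata's percent of mitochondrial and immunoglobulin UMIs, as deposited by the authors, was not used. Cell Ranger 5.0.0, Seurat 4.0 and mm10 are listed in the submitters' processing notes. UMI sums per cell came from the matrices, which differ from the metadata by at most 58 UMIs (1.08%). Of all barcodes, 142 were shared by both libraries, and 0 among the cells described. Counts were summed per library over these cells and given as CPM, with exact Poisson, Clopper-Pearson and conditional binomial 95% intervals (scipy 1.17.1). Ranked genes needed 30 UMIs or more, a ratio of at least 1.5 either way, and at least 0.1 of their CPM in any other cluster, with 12 taken each way by the interval bound nearest 1. Immunoglobulin, T cell receptor, haemoglobin, mitochondrial, ribosomal and predicted genes were left out of that ranking. The cells, gene lists and rules were chosen with earlier results of these data known. Scrublet scores (scanpy 1.11.5) removed the top 8% of barcodes in an alternative, which took 18 TG-labelled and 23 WT-labelled cells. Calculations were tested on simulated data. Coordinates come from GENCODE M21, matched by identifier for 347 of 347 genes. Some genes of the lists are not reported here.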

Additional observations from a re-analysis of the deposited data

Results flagged for a closer look

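Barcodes outside the deposited metadata also held this profile. With 0 CD3 or CD8 UMIs and at least 3 of the 6 ILC2 genes, 19 of 3117 left-out TG-labelled barcodes (0.610%, 0.367 to 0.950) and 18 of 3389 WT-labelled ones (0.531%, 0.315 to 0.838) met the description, against 0 of 2236 TG-labelled and 0 of 2410 WT-labelled B cells. The B cells had median depths of 2235 (TG) and 2445 UMIs (WT), so they give no background at like depth. The left-out barcodes that met the description had 7523 (TG) and 11843 UMIs (WT), and 11 (TG) and 14 (WT) of them had 2200 genes or more. Calca was at 33.5 (TG) and 382 CPM (WT) in them, Csf2 at 275 (TG) and 410 CPM (WT) and Areg at 530 (TG) and 606 CPM (WT). Lyz2, a myeloid gene, was at 805 (TG) and 1263 CPM (WT) in the same barcodes, and the part of doublets was not tested.

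For 4 named genes the TG over WT ratio was at least 1.5-fold one way in the CD3-negative cells and at least 1.5-fold the other way in neighbouring cells, with neither 95% interval reaching 1, and the differences were not tested. Il22 had a ratio of 30.9 in the CD3-negative cells and 0.652 in the other cells of clusters 2 and 4. Of its 327 TG UMIs in the CD3-negative cells, 294 lay in 1 cell, so the ratio of 30.9 does not describe the set. Anxa1 had 3.10 against 0.654, Cxcl10 had 0.358 against 1.76, and Ccr8 had 2.11 against 0.390 in the CD3 or CD8 positive cells of the same cluster. The Cxcl10 ratio in the CD3-negative cells turned direction without the 5 highest cells of each library, as given above.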

How the results depend on the processing

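Of 437 values recomputed under another setting, 345 stayed close, 89 moved further and 3 that were past their threshold turned direction. Close means within the 95% interval of the reported ratio or share, within 1.5 times a count, or within 0.2 of a list's median log2 ratio. The share ratio of 1.65 was 0.937 (0.753 to 1.17) over the cells of clusters 2 and 4. It stayed above 1 under the other settings, such as 1.74 over all barcodes and 1.84 in cells with at least 1000 UMIs. With 0 UMIs of Trac, Trbc1, Trbc2 and Cd4 it was 1.49. Among 31 named genes and 10 settings the direction of a ratio past 1.5-fold turned for Il23r, to 1.03 with 0 UMIs of Trac, Trbc1, Trbc2 and Cd4, and for Cxcl10, to 1.51 without the 5 highest cells. Ratios of 4 genes within 1.5-fold (Gata3, Il1rl1, Klrg1 and Areg) also crossed 1, in 21 values, and 5 of these values lay outside the reported interval. The ratio of Ccl17, and 7 ratios of Il22, Il17a, Mcpt4, Bcl7c and Sart1, had a WT count of 0 under a setting and gave no value. The counts of 363 higher and 499 lower genes were 637 and 806 at 20 UMIs, 42 and 65 at 100 UMIs, 3415 and 3611 with no minimum, 112 and 124 at 2-fold, and 150 and 191 thinned to 1000 UMIs. Lower genes were 317 under median of ratios scaling and 330 in ILC2 gene-bearing cells, and higher genes 235 with 0 UMIs of Trac, Trbc1, Trbc2 and Cd4. Genes of the 13 lists other than cell type markers, 19 higher and 38 lower, were 11 and 22 at 50 UMIs. They were 7 and 15 at 2-fold, and 27 and 29 under median of ratios scaling. Beside these, all genes had 637 and 806 of 5507 at 20 UMIs, and 154 and 236 of 2583 at 50 UMIs. They had 232 and 241 of 5507 at 2-fold, and 871 and 534 of 5507 under median of ratios scaling. The listed counts are not read as a result about the lists. Thinning moved the share with Trac, Trbc1 or Trbc2 to 22.2% (TG) and 13.9% (WT), and the share with at least 2 ILC2 genes to 36.1% (TG). The cause of these changes was not tested. The settings of at least 2 ILC2 genes and of leaving out the 5 highest cells were chosen after seeing the data. Leaving out 5 cells took a larger share of the 133 WT-labelled than of the 238 TG-labelled cells, so the trims were unequal. No paired analysis was possible because each genotype has 1 library.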
